A study of Mus musculus with 56 samples.

Results

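The 8 genes described here encode PI3K, AKT and mTOR kinases with the adaptor and the phosphatase that act on the same lipid signal in macrophages: Pik3ap1, Pik3r1, Pik3cd, Pik3cg, Inpp5d, Akt1, Akt2 and Mtor. They were taken by symbol, but the list was chosen with earlier results of these data known. Each was found once in the bulk count table (8 of 23420 genes), in the single-cell matrix (8 of 27998 genes) and in the FPKM tables (8 of 23356 symbols). All 8 passed the filter on low values in each of the 6 comparisons.

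The 56 samples were mouse microglia. Cultured microglia came from wild-type B6 pups of postnatal day 5 to 8 and were kept in medium (n = 7) or given the cytokine IL-33 at 200 ng/ml for 3 h (n = 7). The culture protocol also names a pretreatment with the compound GSK-J4, and the labels do not say which cultures received it. Tau-GFP plus (n = 8) and Tau-GFP negative (n = 8) microglia were sorted from the cortex of B6/129 carriers of Mapttm1(EGFP)Klt, a neuronal reporter knocked into the Tau gene. The labels give these pups an age of 10 days and the design text says P9. TMRM high (n = 10) and TMRM low (n = 8) microglia came from B6/C57 cortex at postnatal day 9, sorted by staining with TMRM, whose uptake follows mitochondrial membrane potential. Single-cell libraries, 2 per group, came from B6 cortex: wild type at P9, wild type at P28, and P9 mice labelled ST2 Het or ST2 KO, where ST2 is the IL-33 receptor encoded by Il1rl1. The labels do not say how many animals a library holds or whether libraries of a group came from separate animals, so p-values measure the spread between these libraries.

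Class I PI3K enzymes phosphorylate a membrane lipid after a receptor is engaged. Pik3r1 encodes the p85-alpha regulatory subunit that holds and stabilises catalytic subunits, Pik3cd and Pik3cg encode the delta and gamma catalytic subunits that prevail in leukocytes, and Pik3ap1 encodes BCAP, an adaptor that brings PI3K to receptors. The lipid recruits the kinases AKT1 and AKT2, SHIP1 (Inpp5d) removes a phosphate from it, and mTOR is the kinase through which the pathway acts on growth and translation. All values here are RNA levels, and none measures kinase or phosphatase activity.

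The genes lie apart in the genome (GRCm38.p6, that is mm10). Inpp5d spans chr1:87620312-87720510 and Pik3ap1 chr19:41272541-41385102. Pik3r1 spans chr13:101680761-101768217, Pik3cg chr12:32173397-32208677 and Akt1 chr12:112653821-112674884. Pik3cd spans chr4:149649168-149702566, Mtor chr4:148448582-148557685 and Akt2 chr7:27591552-27640826. Inpp5d, Pik3ap1 and Akt1 each overlap an annotated long non-coding RNA gene, and Mtor overlaps Angptl7 on the opposite strand. Whether counting used strand is not given in the sources used here, so reads of such overlaps cannot be told apart. In bulk, Angptl7 had means of 0.131 and 0.197 CPM (counts relative to the library total, after scaling between libraries) in the IL-33 and medium cultures and of 7.39 and 9.81 CPM in Tau-GFP negative and plus cells, where Mtor had 26.8, 28.1, 40.5 and 37.3 CPM. In the summed single cells Angptl7 had 4.47 CPM at P9 and 9.81 at P28, beside 12.3 and 11.01 CPM of Mtor, and its part in the Mtor values was not tested.

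Promoter sequence is shown for Inpp5d and Pik3ap1, which hold a short core that the macrophage factor PU.1 and other ETS factors bind. Sequences are also shown for Akt1, which holds a FOXO core, and for the regulatory subunit Pik3r1. Each is the 250 bases before an annotated start site (RefSeq, GRCm38.p6, 5′ to 3′ on the gene's strand). Capitals mark matches, on either strand, to 4 motifs: GAGGAAG, a core bound by PU.1 and other ETS factors; GTAAACA, the FOXO core; the E-box CACGTG; and an NF-kB pattern of 3 G, 2 bases of any kind, 3 T and 2 C. The Inpp5d window is chr1:87620062-87620311 on the plus strand, and those of Pik3ap1 (chr19:41385103-41385352), Akt1 (chr12:112674885-112675134) and Pik3r1 (chr13:101768218-101768467) are on the minus strand.
Inpp5d: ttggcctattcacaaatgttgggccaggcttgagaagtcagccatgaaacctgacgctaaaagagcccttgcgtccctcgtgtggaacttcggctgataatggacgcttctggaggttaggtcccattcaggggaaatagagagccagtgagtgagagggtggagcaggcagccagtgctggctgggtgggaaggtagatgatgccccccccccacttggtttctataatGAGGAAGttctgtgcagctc
Pik3ap1: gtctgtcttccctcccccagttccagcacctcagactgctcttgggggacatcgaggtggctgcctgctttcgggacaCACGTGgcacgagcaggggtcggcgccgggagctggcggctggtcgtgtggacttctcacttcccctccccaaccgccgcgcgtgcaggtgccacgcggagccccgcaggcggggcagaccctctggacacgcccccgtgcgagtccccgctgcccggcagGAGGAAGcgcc
Akt1: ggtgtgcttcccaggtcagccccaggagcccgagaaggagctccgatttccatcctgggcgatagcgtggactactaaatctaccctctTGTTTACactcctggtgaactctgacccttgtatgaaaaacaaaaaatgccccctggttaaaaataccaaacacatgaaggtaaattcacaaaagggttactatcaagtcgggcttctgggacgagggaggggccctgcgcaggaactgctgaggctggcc
Pik3r1: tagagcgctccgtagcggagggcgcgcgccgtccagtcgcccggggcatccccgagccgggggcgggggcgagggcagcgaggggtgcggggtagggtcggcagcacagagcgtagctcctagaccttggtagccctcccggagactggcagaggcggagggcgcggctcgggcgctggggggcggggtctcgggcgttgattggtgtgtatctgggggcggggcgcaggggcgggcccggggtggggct
All 8 genes matched by symbol and have 16 such windows. GAGGAAG was found in 3 of them, those of Inpp5d and Pik3ap1 shown and 1 of 2 of Pik3cg, against 10.6% of all 32851 promoter windows of the same length. The FOXO core was found in the same Pik3cg window and in the Akt1 window shown (3.17% of all), CACGTG in that of Pik3ap1 (6.02% of all), and the NF-kB pattern in none of the 16 (1.41% of all). The Pik3r1 window shown holds 30 CpG dinucleotides and that of Pik3ap1 23, while that of Akt1 holds 7 and that of Inpp5d 5. Pik3r1 and Akt1 have 2 windows each. Their windows not shown go the other way, with 6 CpG for Pik3r1 and 31 for Akt1, and hold none of the motifs. These matches describe letters, and no binding was measured.

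Levels of different genes were compared within libraries in FPKM, which are scaled to gene length, over the 18 TMRM-sorted libraries. Inpp5d was the most abundant member, with 43.8 FPKM in the lowest library, a median of 62.0 and 88.3 in the highest. Pik3ap1 followed (19.5, 38.2 and 46.4 FPKM). Inpp5d was above Pik3ap1, and Pik3ap1 above Pik3cd, in 18 of 18 libraries. Pik3cd (8.97, 18.99 and 28.1 FPKM) and Pik3cg (9.1, 19.04 and 23.1 FPKM) could not be ranked, since Pik3cd was the higher in 10 of 18. Akt1 had a median of 14.7 FPKM, below Pik3cg in 13 of 18 libraries, and Akt2 one of 11.85 FPKM, below Akt1 in 16 of 18. Pik3r1 (median 6.74 FPKM) was below Akt2 in 16 of 18. Mtor (1.95 to 3.96 FPKM) was below Pik3r1 in all 18. In FPKM, Inpp5d thus had the highest transcript level of the set and Mtor the lowest median. The order differed in the 3'-end counts of single microglia-like cells, pooled and unscaled. There Inpp5d had 242 CPM, Pik3r1 129, Akt1 116, Pik3cg 47.7, Pik3cd 40.4, Akt2 24.8, Mtor 11.1 and Pik3ap1 6.53.

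The groups' identity and depth touch the results below. Bulk libraries of the count table held 7709047 to 11826389 expected counts. The 11 microglial markers summed to 49750 to 60110 CPM in Tau-GFP negative cells, 24850 to 38840 in Tau-GFP plus cells and 8751 to 9800 in medium culture, so these markers were lowest in culture. Microglia-like cells of the single-cell set had a median of 2232 to 2296 UMIs (unique transcript molecules counted) at P28 and 3826 to 4062 at P9 in wild type. Il1rl1 had 30 and 28 UMIs in the ST2 KO libraries and 36 and 46 in the ST2 Het libraries, or 7.38 and 6.16 against 5.29 and 6.54 CPM, so 3'-end counts could not check the genotype labels. In bulk samples, fewer cells of a type and less RNA per cell cannot be told apart.

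Between P9 and P28, 5 of the 8 genes rose in wild-type cortical microglia and none fell (edgeR on UMIs summed over microglia-like cells). Of 11603 genes tested, 27.5% were called higher and 26.2% lower. The median difference of the members was 0.37 on the log2 scale, against 0.057 over all genes. The regulatory subunit and the phosphatase changed most.

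Pik3r1, the regulatory subunit, had 89.8 and 86.4 CPM (UMIs relative to the library's total, scaled between libraries) at P9 and 225 and 224 at P28. It rose 2.55-fold (log2 difference 1.35 ± 0.057 SE, adjusted p = 4.8e-10, edgeR). Inpp5d had 184 and 194 CPM at P9 and 382 and 383 at P28. It rose 2.02-fold (1.02 ± 0.056, adjusted p = 5.7e-09, edgeR). The libraries of the 2 ages did not overlap for either gene, and the 2 libraries of an age lay close together.

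The same UMIs were also expressed as the share of cells with a UMI, after each cell was thinned to 1000 UMIs to equalise depth. These shares restate the difference above and are no separate evidence for it. Inpp5d was found in 16.6% and 18.6% of microglia-like cells at P9 and in 30.6% and 30.7% at P28. Pik3r1 was found in 8.28% and 8.15% at P9 and in 21.5% and 19.5% at P28. Without thinning the shares were 50.2% and 53.7% at P9 against 57.4% and 56.4% at P28 for Inpp5d, and 28.98% and 29.05% against 43.1% and 40.8% for Pik3r1. The thinning left 2562 of 2564 and 2220 of 2220 cells at P9, and 2819 of 2835 and 2868 of 2898 at P28. Endothelial-like cells, which should largely lack Inpp5d, had 3.21% (95% exact interval 1.19 to 6.85%, 187 cells) with an Inpp5d UMI and 2.67% with a Pik3r1 UMI after the same thinning, from a median of 2107 UMIs. The intervals cover counting error only. The endothelial-like cluster also held microglial RNA, with microglial markers at a mean of 807 CPM and endothelial markers at 388 CPM. In microglia-like clusters the microglial mean was 1954 to 4554 CPM. Its shares are thus not those of endothelial cells alone.

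Akt1 had 87.3 and 105 CPM at P9 and 122 and 132 at P28, a rise of 1.33-fold (0.41 ± 0.086, adjusted p = 0.0014, edgeR). Pik3cg, the gamma catalytic subunit, had 41.3 and 40.7 at P9 and 53.5 and 50.4 at P28 (0.34 ± 0.082, adjusted p = 0.0033). Pik3ap1 had only 45 and 51 UMIs in all at P9 and 79 and 64 at P28, and its level rose from 4.38 and 5.49 to 10.5 and 8.6 CPM (0.95 ± 0.28, adjusted p = 0.012). DESeq2 did not call Pik3ap1 (adjusted p = 0.053) or Pik3cg (0.062), and Pik3ap1 was not called without the first P28 library (0.084) or the first P9 library (0.085). These 3 rises were thus smaller or rested on fewer molecules than those of Pik3r1 and Inpp5d.

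Pik3cd, the delta subunit, differed by 0.18 ± 0.095 (adjusted p = 0.13), Akt2 by -0.038 ± 0.12 (adjusted p = 0.8) and Mtor by -0.16 ± 0.2 (adjusted p = 0.53). The interval of 2 SE ran from -0.01 to 0.37 for Pik3cd and from -0.56 to 0.24 for Mtor.

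Cell cycle clusters differed with age. At P9 29.5% and 31.7% of microglia-like cells lay in clusters led by cell cycle genes, and at P28 0%. Without those clusters Pik3r1 differed by 1.29 and Inpp5d by 0.96, and the same 5 members were called. Neutrophil markers summed to 55.3 and 88.9 CPM in the P28 sums and to 2.14 and 5.92 at P9. T or NK cell markers (24.4 to 27.6 against 1.85 to 2.91 CPM) and astrocyte markers (179 to 183 against 38.1 to 38.3 CPM) were also higher at P28, and border-associated macrophage markers were lower (33.0 to 37.5 against 298 to 311 CPM). The part of these lists in the result was not tested. Pooled neutrophil-like cells had 146 Inpp5d and 70.3 Pik3r1 CPM, with Pik3r1 at 142 and 14.1 CPM in P28 libraries 1 and 2. Their cluster also held monocyte markers (mean 1005 CPM) and microglial markers (614 CPM), beside neutrophil markers at 8841 CPM. These levels are thus not those of neutrophils alone. The 11 T or NK cell-like cells had 39.0 Inpp5d and 234 Pik3r1 CPM, from 1 and 6 UMIs.

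**Figure D1:**
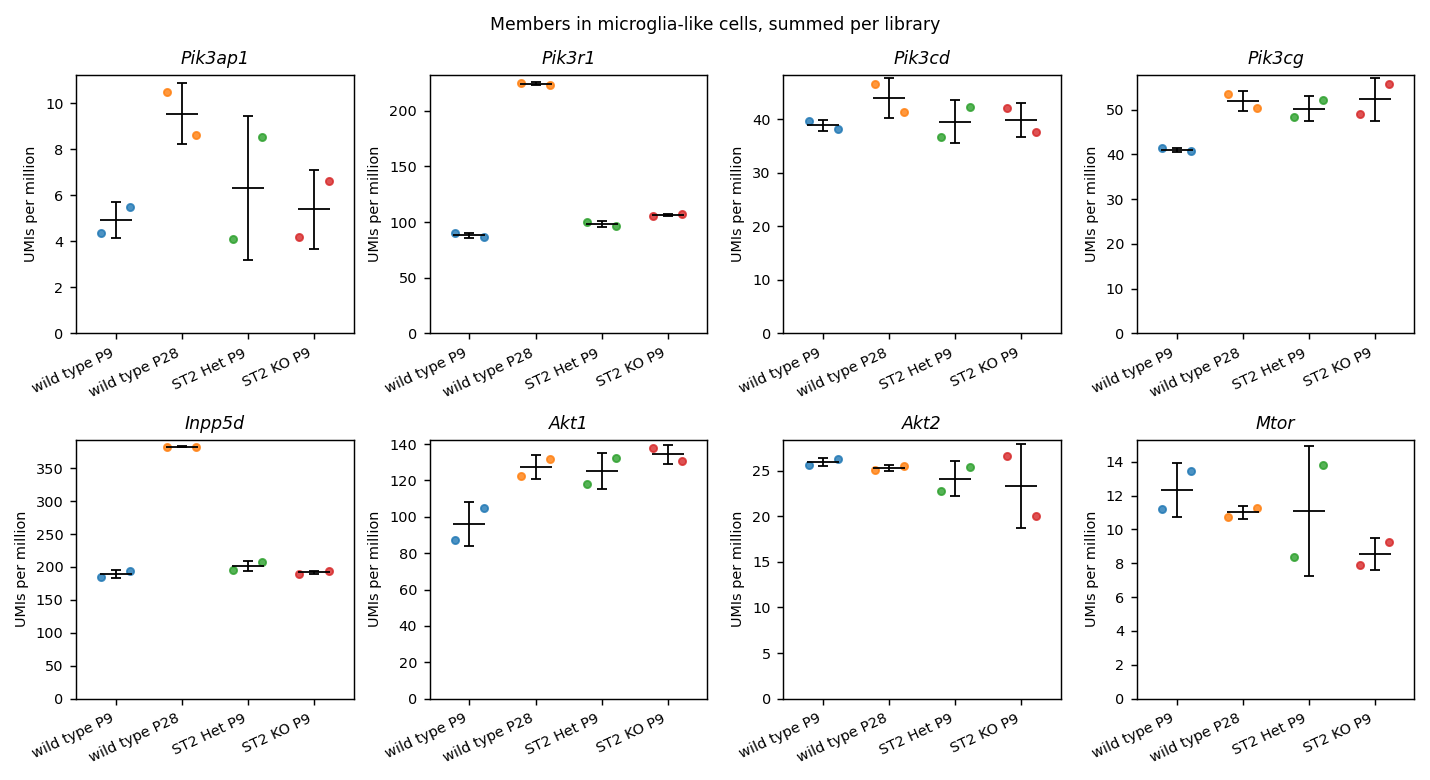
Each panel shows 1 member in the 8 single-cell libraries, as CPM in summed microglia-like cells by group, with points for libraries and bars for the mean ± SD (n = 2). Pik3r1 and Inpp5d stand at 224 to 225 and 382 to 383 at P28, above all P9 libraries, and the ST2 Het and ST2 KO libraries overlap for all members but Pik3r1 and Inpp5d.

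Among the 54 other pathway genes, 51 were tested between the ages and 21 rose and 7 fell, with a median log2 difference of 0.22. Sgk1, a kinase related to AKT, rose 2.86-fold (1.51 ± 0.06, adjusted p = 2.8e-10). Rptor, the subunit that defines mTOR complex 1, rose 1.91-fold (0.94 ± 0.083, adjusted p = 6.3e-07). Of the 8 lipid and AKT phosphatases tested, 5 were called higher at P28, 0 lower and 3 were not called. Over all genes 27.5% were called higher and 26.2% lower. In the list of TSC, RHEB and lysosomal switch genes, 2 rose and 4 fell.

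Mice labelled ST2 KO and ST2 Het had no member called by edgeR (0 of 8, and 0 by DESeq2), while 0.603% of 11603 genes were called in either direction. No member had an unadjusted p under 0.05, against 1 of the 51 other pathway genes and 1154 of all 11603 genes. Inpp5d had 196 and 207 CPM in ST2 Het and 190 and 193 in ST2 KO, a log2 difference of -0.071 ± 0.058 (adjusted p = 0.75). Pik3r1 had 100.2 and 96.1 in ST2 Het and 106 and 107 in ST2 KO (0.12 ± 0.062, adjusted p = 0.57). For both genes the groups did not overlap, but the differences were small. The interval of 2 SE ran from -0.19 to 0.05 for Inpp5d, from -0.08 to 0.28 for Akt1 and from -0.94 to 0.49 for Pik3ap1. The interval was thus widest for the adaptor, which had the fewest UMIs. Xist was at 1883 and 1951 CPM in ST2 Het and at 1262 and 1244 in ST2 KO, and its part in the comparison was not tested.

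Across classes of cell, the members were not shared equally. Pooled over libraries and unscaled, Inpp5d had 242 CPM in microglia-like cells (95% Poisson interval 238 to 246), 133 in border-associated macrophage-like cells (119 to 149) and 36.7 in endothelial-like cells (22 UMIs in all). The endothelial-like cluster also held microglial markers (mean 807 CPM), so its level is not that of endothelial cells alone. Inpp5d rose with age, and the pools differ in age, as most border macrophage-like cells came from P9. Within the wild-type P9 libraries Inpp5d had 179 and 186 CPM in microglia-like and 118 and 109 in border macrophage-like cells, and the latter were above the former in 1 of 8 libraries, an ST2 KO library with 15 such cells. Pik3cg had the opposite order between the macrophage classes, 47.7 (45.9 to 49.5) in microglia-like and 90.5 (79.0 to 103) in border macrophage-like cells, and was higher in the latter in 8 of 8 libraries. Akt1 was lower there in all 8. Since clusters were built from all genes, these are descriptions. Pik3ap1 was rare in 3'-end counts, at 6.53 CPM in microglia-like cells, although it was the second most abundant member in FPKM. Levels are not compared between these assays, only the order of the genes.

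**Figure D2:**
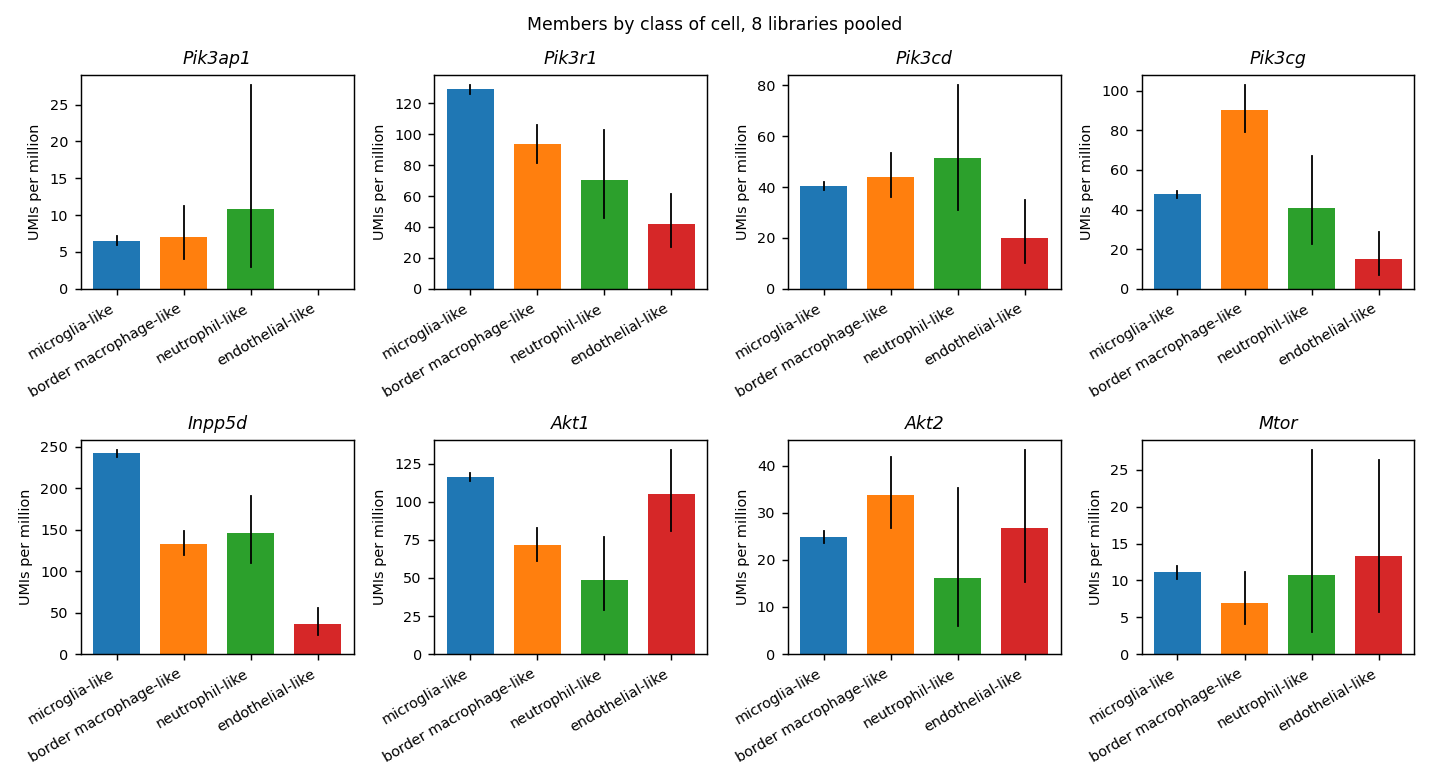
Bars show each member in CPM (y axis) in 4 classes of cell pooled over the 8 libraries, and lines the 95% exact Poisson interval, which covers counting error only. Inpp5d is highest in microglia-like cells (242) and Pik3cg in border macrophage-like cells (90.5).

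In microglia given IL-33, 1 member rose and 1 fell, by small amounts. Of 10815 genes tested with edgeR, 4.22% were called higher and 3.54% lower. The median of the members was -0.056 and that of all genes -0.0088 on the log2 scale. Both changes concern the enzymes acting on the lipid.

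Pik3cg ranged from 214 to 232 CPM in medium (median 221) and from 230 to 288 with IL-33 (median 258). The ranges overlapped only at their ends, and 7 of 7 IL-33 libraries were above the median of medium. It rose 1.14-fold (0.19 ± 0.047, adjusted p = 0.014, edgeR). Inpp5d ranged from 245 to 295 CPM in medium (median 276) and from 227 to 264 with IL-33 (median 237), and 7 of 7 IL-33 libraries were below the median of medium. It fell by 0.19 ± 0.044 on the log2 scale (adjusted p = 0.0072, edgeR). Both calls remained in all 19 alternative settings, with adjusted p up to 0.034 for Pik3cg and 0.02 for Inpp5d. Pik3r1 (-0.17 ± 0.086, adjusted p = 0.3), Pik3cd (-0.01 ± 0.067), Akt1 (-0.097 ± 0.067), Akt2 (-0.042 ± 0.068) and Mtor (-0.07 ± 0.089) were not called, and the adaptor Pik3ap1 was at -0.024 ± 0.046.

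Among the other pathway genes, 51 were tested and 4 rose and 2 fell, with a median of -0.033. The regulatory partners of the gamma subunit rose as well. Pik3r5, the p101 regulatory subunit, rose from 147 ± 10.9 to 197 ± 22.3 CPM (mean ± SD, n = 7). Its log2 difference was 0.42 ± 0.064 (adjusted p = 0.00018, edgeR). Pik3r6, the p84 subunit, rose from 18.9 ± 2.66 to 26.9 ± 3.13 CPM (0.51 ± 0.1, adjusted p = 0.002, edgeR). The catalytic subunit and both of its regulatory partners were thus higher with IL-33. They did not move together in every comparison. Pik3cg, Pik3r5 and Pik3r6 all fell in Tau-GFP plus cells (-0.27, -0.61 and -0.43). In medium culture against sorted cells Pik3r5 was higher (0.68), while Pik3cg (-0.36) and Pik3r6 (-1.76) were lower. Foxo3, a transcription factor that AKT inhibits, fell from 19.9 ± 1.18 to 15.2 ± 1.47 CPM (-0.39 ± 0.082, adjusted p = 0.0037). For Pik3r5, Pik3r6 and Foxo3 the groups did not overlap. Eif4ebp1 and Gab1 also rose.

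In Tau-GFP plus microglia, 6 of the 8 members fell and 1 rose compared with Tau-GFP negative microglia. Of 12138 genes tested with edgeR, 20.7% were called higher and 16.9% lower. The median of the members was -0.3 and that of all genes 0.0072.

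Inpp5d ranged from 597 to 732 CPM in negative cells (median 668) and from 368 to 541 in plus cells (median 481), and the groups did not overlap. It fell by 0.49 ± 0.069 (adjusted p = 2.6e-05, edgeR). Pik3r1 ranged from 56.9 to 77.7 CPM in negative cells (median 70.2) and from 43.3 to 53.7 in plus cells (median 49.5). It fell by 0.48 ± 0.068 (adjusted p = 2.9e-05). Akt1 ranged from 75.5 to 86.5 CPM in negative cells and from 53.1 to 70.0 in plus cells, and fell by 0.32 ± 0.056 (adjusted p = 0.00018). For these 3 genes every plus library lay below every negative library.

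Pik3cd (143 ± 26.3 against 181 ± 20.2 CPM, -0.34 ± 0.1, adjusted p = 0.015), Pik3cg (237 ± 21.7 against 286 ± 20.7 CPM, -0.27 ± 0.061, adjusted p = 0.0019) and Pik3ap1 (126 ± 14.3 against 150 ± 8.09 CPM, -0.25 ± 0.067, adjusted p = 0.0067) fell with overlapping ranges (mean ± SD, n = 8). Akt2 went the other way. It ranged from 42.7 to 57.4 CPM in negative cells (median 47.1) and from 54.2 to 73.7 in plus cells (median 63.2), and rose 1.31-fold (0.39 ± 0.077, adjusted p = 0.00066). The ratio of Akt1 to Akt2 CPM was 1.51 to 1.88 in the negative libraries and 0.918 to 1.18 in the plus libraries, without overlap. Mtor did not pass (-0.11 ± 0.097, adjusted p = 0.38).

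The plus libraries also held more RNA of other cell types. Neuron markers summed to 66.0 to 148 CPM in plus and 2.4 to 12.6 CPM in negative libraries, and border-associated macrophage markers to 2376 to 6644 and 411 to 635 CPM. Mural markers summed to 39.3 to 265 CPM in plus and 5.43 to 32.0 CPM in negative libraries. Cell cycle genes were higher in plus libraries too, at 3888 to 4947 against 2885 to 3876 CPM. Endothelial markers reached 2662 CPM in plus replicate 3, which was lowest for Inpp5d (368), Pik3ap1 (92.1) and Akt1 (53.1 CPM). The part of these markers and of the cell cycle genes in the result was not tested. Without plus replicate 3 the 7 calls remained.

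Of the 54 other pathway genes, 12 rose and 9 fell, with a median of -0.019. Rptor fell from 184 ± 19.8 to 116 ± 20.4 CPM (-0.66 ± 0.097, adjusted p = 4e-05). Eif4e, the cap-binding translation factor, rose (0.46 ± 0.064, adjusted p = 2.1e-05), and so did its inhibitor Eif4ebp1 (0.62 ± 0.11, adjusted p = 0.00035). In the list of TSC, RHEB and lysosomal switch genes 5 rose (Lamtor1, Lamtor2, Lamtor3, Lamtor5 and Rheb) and 1 fell (Tsc1), and of the other PI3K subunits 1 rose and 4 fell.

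Compared with sorted Tau-GFP negative microglia, microglia cultured in medium had 1 member higher and 6 lower. Of 12748 genes tested with edgeR, 36.2% were called higher and 41.1% lower. Culture, strain, age and selection cannot be told apart here. Border-associated macrophage markers summed to 1341 to 1850 CPM in medium and 411 to 635 CPM in sorted cells, and oligodendrocyte precursor markers to 20.99 to 58.3 and 0.276 to 2.24 CPM. Xist was at 399.8 to 461 CPM in medium and, in sorted cells, at 2088 to 2238 CPM in 5 libraries and 0.0975 to 1.31 CPM in 3. The part of these in the result was not tested. The median of the members was -0.46 and that of all genes -0.086.

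Pik3cd had the largest difference. It ranged from 144 to 204 CPM in sorted cells (median 180) and from 53.4 to 71.9 in culture (median 59.7), which is 3.01-fold lower in culture (log2 difference -1.59 ± 0.096, adjusted p = 7.4e-16). Inpp5d was lower (274 ± 15.3 against 669 ± 51.6 CPM, -1.29 ± 0.064, adjusted p = 5.5e-18). Pik3r1 was lower too (31.7 ± 3.26 against 68.5 ± 7.37 CPM, -1.11 ± 0.077, adjusted p = 2.6e-14). Mtor differed by -0.53 ± 0.095, Akt1 by -0.4 ± 0.063 and Pik3cg by -0.36 ± 0.058. Pik3ap1 was higher, 263 ± 13.6 against 150 ± 8.09 CPM (0.82 ± 0.06, adjusted p = 1.1e-13). No library of one group overlapped the other for these 7 genes, while Akt2 was at 45.1 ± 4.58 and 48.2 ± 4.76 CPM (adjusted p = 0.24). With Tau-GFP plus cells as the sorted group, Pik3cg (adjusted p = 0.17) and Akt1 (0.3) were not called, and Akt2 was lower in culture (-0.48).

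Of the 54 other pathway genes, 22 were higher and 20 lower in culture, with a median of 0.0052. In the list of TSC, RHEB and lysosomal switch genes, 9 of 12 were higher and 1 lower, with a median of 1.2. Lamtor3 and Lamtor2, parts of the Ragulator complex that anchors mTOR complex 1 to lysosomes, were higher by 1.9 ± 0.083 and 1.79 ± 0.08. Eif4e was higher by 1.1 ± 0.054.

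**Figure D3:**
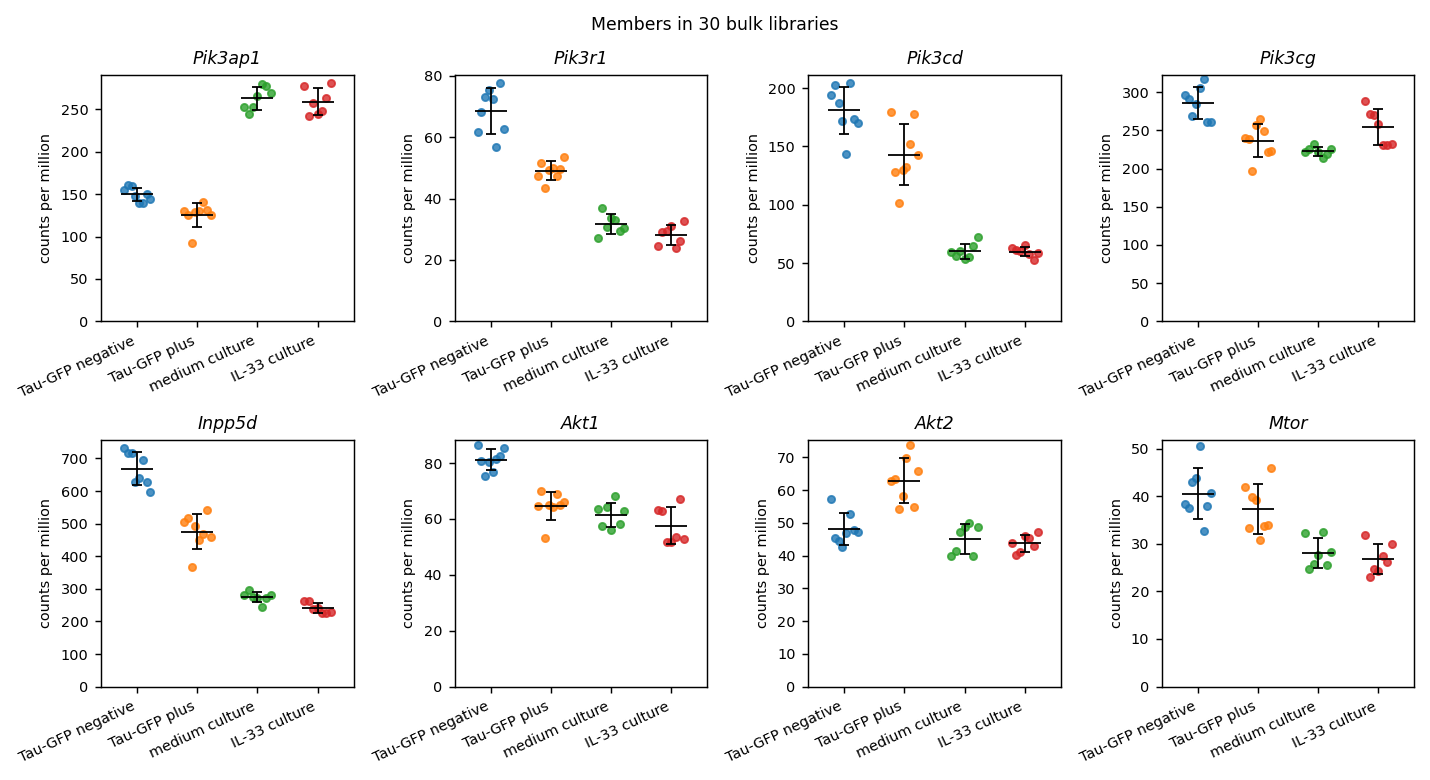
Each panel shows 1 member in 30 bulk libraries (CPM, y axis) by group, with points for libraries and bars for the mean ± SD. Pik3cd and Inpp5d fall from sorted to cultured cells, Pik3ap1 is highest in culture (medians 257 and 266 CPM), and Akt2 is highest in Tau-GFP plus cells (median 63.2 CPM).

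Between TMRM high and TMRM low microglia, 2 members fell and none rose (limma on log2 of FPKM plus 1). Of 10714 genes tested, 20.4% were called higher and 9.84% lower. The median of the members was 0.025 and that of all genes 0.056.

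Pik3r1 ranged from 6.66 to 9.53 FPKM in TMRM low cells (median 7.84) and from 4.53 to 6.89 in TMRM high cells (median 6.01). The ranges overlapped slightly, and 0 of 10 high libraries exceeded the low median. It fell by 0.38 ± 0.092 on the log2(FPKM + 1) scale (adjusted p = 0.0035, limma), and remained called in all 24 alternatives. Mtor ranged from 2.54 to 3.96 FPKM in low cells and from 1.95 to 2.94 in high cells, and fell by 0.23 ± 0.083 (adjusted p = 0.039). The Mtor call was near the threshold and was lost when any 1 of 10 libraries was left out (high 1, 3, 4, 7 or 9, or low 3, 4, 5, 6 or 7), with adjusted p up to 0.076.

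TMRM low replicate 2 stood apart, with 19.5 FPKM of Pik3ap1, 8.97 of Pik3cd, 9.1 of Pik3cg and 43.8 of Inpp5d, the lowest of its group for each. It also had the highest neutrophil marker sum (2261 FPKM) and endothelial marker sum (140 FPKM) of the TMRM low libraries. Neutrophil markers summed to 606 to 2261 FPKM in low and 0.184 to 752 FPKM in high libraries. Neuron markers (8.41 to 50.6 against 1.45 to 4.12 FPKM) and cell cycle genes (1378 to 1737 against 2234 to 2625 FPKM) separated low from high libraries without overlap, and border-associated macrophage markers had medians of 88.3 and 152 FPKM. The part of these lists in the result was not tested. Without that library 5 members were called: Pik3r1 and Mtor, Pik3ap1 (-0.2, adjusted p = 0.02) and Inpp5d (-0.24, adjusted p = 0.028), which fell, and Akt2 (0.29, adjusted p = 0.033), which rose. With all libraries these last 3 were at -0.065 ± 0.13, -0.15 ± 0.1 and 0.26 ± 0.1 (adjusted p = 0.74, 0.26 and 0.06).

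Neither AKT gene passed the threshold in TMRM high against low cells with all libraries. Akt2 ranged from 8.15 to 14.4 FPKM in low cells (median 10.98) and from 10.8 to 15.2 in high cells (median 13.3). It was called in 4 of 24 alternatives: without TMRM low 2, without TMRM low 4 (0.31, adjusted p = 0.018), without TMRM high 5 (0.28, adjusted p = 0.046) and at a mean of at least 5 FPKM (0.26, adjusted p = 0.048). Akt1 ranged from 10.2 to 19.5 FPKM in low cells (median 13.5) and from 14.4 to 19.1 in high cells (median 15.5), a difference of 0.23 ± 0.094 (adjusted p = 0.078), and 10 of 10 high libraries exceeded the low median. Without TMRM low 3, the highest library of its group at 19.5 FPKM, Akt1 was called (0.3, adjusted p = 0.006). Pik3cd (0.18 ± 0.15) and Pik3cg (0.12 ± 0.14) were not called.

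**Figure D4:**
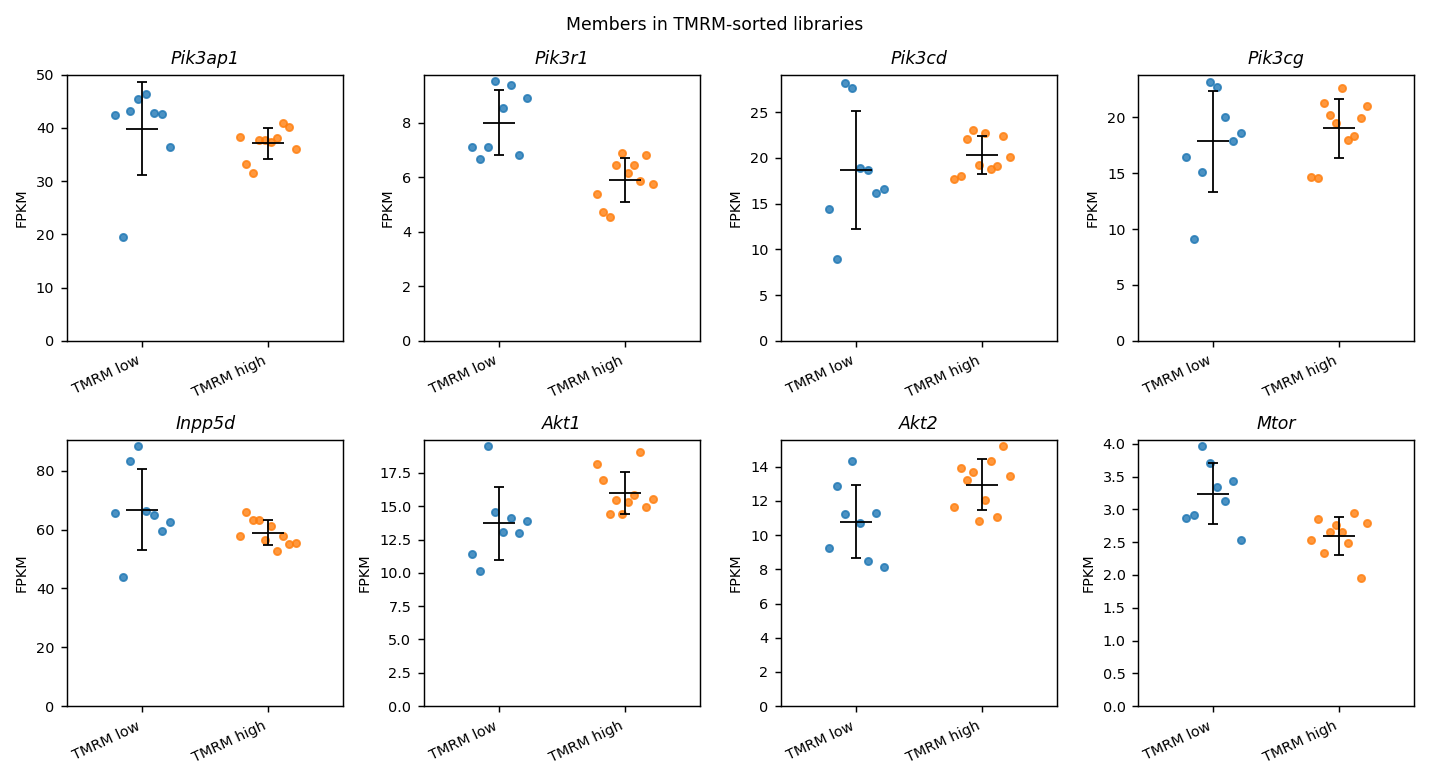
Each panel shows 1 member in the 18 TMRM-sorted libraries (FPKM, y axis), with points for libraries and bars for the mean ± SD. Pik3r1 is lower in TMRM high (median 6.01) than TMRM low (7.84), and TMRM low 2 is the lowest point for Pik3ap1 (19.5 FPKM).

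Of the other pathway genes, 46 were tested and 8 rose and 4 fell in TMRM high cells, with a median of 0.02. All 5 Lamtor genes rose, among them Lamtor4 (44.4 ± 3.29 against 29.8 ± 4.3 FPKM, 0.57 ± 0.078, adjusted p = 1.4e-05) and Lamtor1 (0.39 ± 0.067, adjusted p = 0.00015), together with Rheb, the small GTPase that activates mTOR complex 1. Eif4ebp1 rose (0.61 ± 0.1, adjusted p = 0.00011). Rptor and Rictor, which define the mTOR complexes, fell, as did Sgk1 and Pik3r6. The lysosomal anchor genes and the mTOR complex subunits called here moved in opposite directions.

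Side by side, Pik3r1 was called in 4 of the 6 comparisons: higher at P28, and lower in Tau-GFP plus, in culture and in TMRM high cells. Inpp5d was called in 4, higher at P28 and lower in Tau-GFP plus, in culture and with IL-33. Pik3cg was called in 4 as well, higher with IL-33 and at P28 and lower in Tau-GFP plus and in culture. Pik3ap1 and Akt1 were called in 3 each, Pik3cd and Mtor in 2 and Akt2 in 1. Of all genes tested, 36.2% were called higher and 41.1% lower in culture, and 27.5% and 26.2% at P28. The shares were 20.7% and 16.9% in Tau-GFP plus, 20.4% and 9.84% in TMRM high cells and 4.22% and 3.54% with IL-33. Between ST2 KO and ST2 Het 0.603% were called in either direction. The Tau-GFP and culture comparisons share the Tau-GFP negative libraries, and the IL-33 and culture comparisons share the medium libraries.

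**Figure D5:**
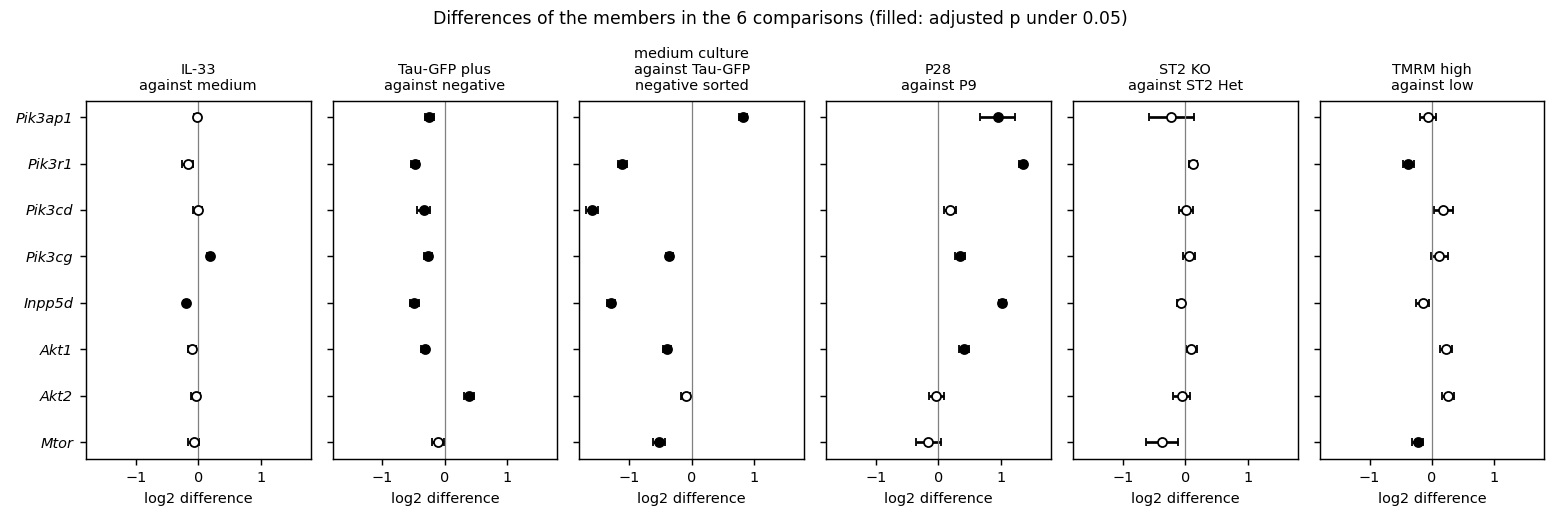
Log2 differences (x axis, ± SE) of the 8 members in the 6 comparisons, filled where the adjusted p was under 0.05. Pik3r1 (1.35) and Inpp5d (1.02) lie furthest to the right at P28, and Pik3cd (-1.59) furthest to the left in culture.

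Over the 30 bulk libraries, after each group's mean was removed, the members did not vary as 1 block. The highest Pearson r of log2 CPM between members was 0.67 for Pik3cd and Inpp5d, followed by 0.56 for Pik3cg and Inpp5d, while Pik3r1 stayed between -0.2 and 0.2 with every other member and Mtor between -0.27 and 0.02. Among 8253 genes with a mean of at least 10 CPM, those most like Inpp5d were Cd33 (r = 0.86), Ivns1abp (0.85) and Gm2a (0.81), and those most like Pik3cg were Myo7a (0.85), Fyb (0.77) and Csf2rb (0.77). For Pik3cd they were Arid1a (0.73), Etv5 (0.72) and Zdhhc17 (0.71), and for Pik3ap1 Specc1 (0.77), Lrp1 (0.76) and Etv5 (0.75). By ranks (Spearman rho) Pik3ap1 was lower with these genes, at 0.52, 0.54 and 0.58, and Pik3cd with Etv5 was at 0.53. Pik3r1 was most like Pde8b (0.69), Casc5 (0.66) and Slc25a37 (0.62), and Mtor most like Zfp719 (0.64), Zfp639 (0.63) and Spryd4 (0.62). The nearest genes were Cirbp (0.67), Rasa3 (0.66) and Ssbp3 (0.66) for Akt1, and Pacsin2 (0.67), Cnpy3 (0.65) and Ms4a6d (0.65) for Akt2. These values describe 30 libraries, in which genes of 1 library share its depth, and carry no test.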

How the data were processed

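The members and gene lists were chosen with earlier results of these data known. In the deposited bulk table the values are expected counts made with RSEM and Bowtie2 on mm10, per the submitters' processing notes, and 25.3% of its values are not whole. The deposited single-cell matrix holds UMI counts from Cell Ranger. The deposited TMRM values are FPKM from TopHat2 2.0.10 and Cufflinks 2.0.2, with read depth unknown. The file of TMRM high 8 ends early, but holds all 8 members. In the count table, 5 columns that no label names were not used, and 27 symbols turned into dates (0.134% of counts) stayed in the fits.

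Barcodes needed 500 genes or more and a mitochondrial share below 10% (15335 of 15507; 135 barcodes occur in 2 or more libraries) and were clustered (scanpy 1.11.5, Leiden resolution 1, 18 clusters) and named by marker lists. Of the 14 microglia-like clusters (14417 cells), cluster 1 had the B-cell list gene Cd79b among its top genes, a gene with UMIs in 13.1 to 45.0% of the cells of every microglia-like cluster. Doublet calls (54 cells) were too few to use. UMIs were summed per library. Where a wild-type barcode prefix lacked a number, it was matched to replicate 1 because replicate 2 has one.

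Rounded counts were tested with edgeR 4.0.16 (quasi-likelihood, TMM, default filter; SE is the absolute log2 difference over the square root of F) and FPKM with limma 3.58.1 on log2(FPKM + 1) for means of at least 1 FPKM. The IL-33 and Tau-GFP fits used their own libraries, the culture fit all 30 bulk libraries and the single-cell fit all 8. Two-sided p-values were adjusted by Benjamini-Hochberg over all genes tested, with a threshold of 0.05. DESeq2 1.42.0, other filters, scalings and pseudocounts, replicate blocks and leaving out each library were alternatives. The fits were also run on simulated data with fewer changed genes than most comparisons here called, and no result rests on that run. Named genes are the 8 members, the 3 other pathway genes of lowest adjusted p per comparison, counts over 54 listed genes and the 3 genes most like each member; other named pathway genes were chosen after their values were seen, and some listed genes are counted but not reported by name here. CPM levels come from 1 scaling of 30 bulk libraries, and differences from each fit.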

Additional observations from a re-analysis of the deposited data

Results flagged for a closer look

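Of 48 sets of 1 member in 1 bulk group, 4 had a library far from the rest, where chance gives about 1 in 20. Tau-GFP plus 3 was lowest for Pik3ap1 at 92.1 CPM (the next library had 125 CPM) and for Akt1 at 53.1 CPM (next 64.2 CPM). TMRM low 2 was lowest for Pik3ap1 at 19.5 FPKM (next 36.5 FPKM). TMRM low 3 was highest for Akt1 at 19.5 FPKM (next 14.5 FPKM).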

How the results depend on the processing

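Over all alternatives, 845 values of single members kept direction and side of the threshold, 18 lost a call, 8 gained one and 16 changed sign, all 16 for differences that were not called. DESeq2 called 3 members in P28 against P9, where edgeR called 5. In TMRM high against low, 2 members were called, 1 with no low-value filter, 1 with the replicate block and 1 to 5 when 1 library was left out (5 without TMRM low 2); Mtor was not tested at a mean of at least 5 FPKM. The replicate block changed no other member call; not every same-numbered pair correlated above 0.1, so the numbers were not taken as pairs. In Tau-GFP the correlations were nonetheless above 0 for 7 of 8 numbers (-0.159 to 0.432), 4 of 8 numbers matched best with their own, and Xist was high in replicates 1 to 5 and near 0 in replicates 6 to 8 of both groups, a hint of pairing from the data; there the block kept all 7 calls, with adjusted p up to 0.019 (Pik3ap1). In ST2 the correlation was 0.138. Of all genes, ST2 KO against ST2 Het called 70, but 367 with no low-count filter, 304 with the replicate block, 44 with all cells and 24 to 160 with 1 library left out. The lone library left in a group was then assumed to vary like the others. The cause was not tested.

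The signs that changed were those of Akt2 at P28 (0.0209 without cell cycle clusters, 0.0416 with stricter cells, -0.0566 to 0.000518 with 1 library left out), Pik3cd in ST2 KO with no low-count filter (-0.00194), and, with 1 library left out, Pik3cd with IL-33 (-0.0352 to 0.0407) and Pik3cg with TMRM (-0.00753 to 0.172). For ST2 KO they were Pik3ap1 (-0.64 to 0.402), Pik3cd (-0.0864 to 0.112), Pik3cg (-0.0418 to 0.147), Akt2 (-0.269 to 0.136) and Mtor (-0.677 to 0.0344). Low UMI counts of Pik3ap1 and Mtor limit the single-cell differences.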
